A study of Sus scrofa with 36 samples.

Results

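The comparison asked where gene expression in the adrenal gland of crossbred pigs left the value halfway between its parental breeds when the animals were heat stressed. It used 18 Agilent 1-colour porcine arrays out of the 36 of the study, 1 array per pig: 6 F1 pigs of the Large White × Creole cross, 6 Large White pigs and 6 Creole pigs, all castrated males kept under heat stress (HS). The members were chosen by their titles, and the value described for each probe is the mean of the 6 cross pigs minus the mean of the Large White and Creole group means, which is called the departure from the mid-parent value. All values are the deposited log2 signals, so a departure of 1 is a factor of 2. The temperature label of the HS pigs says 30 °C, whereas the growth protocol gives 32 °C for 5 days and the study's methods 4 or 5 days. The other 18 pigs, also 6 per breed, were slaughtered before the exposure at 24 °C (thermoneutral, TN), and the same departure was computed in them because none of their arrays entered the HS value. Whole glands were ground to powder before RNA extraction, so cortex and medulla were measured together. In such bulk samples fewer cells of a type and less RNA per cell cannot be told apart. By the study's methods each breed came from 3 litters of 4 pigs, split between the temperatures, so that each group of 6 held littermates and the TN pigs were littermates of the HS pigs. The labels used here do not give litter, pen or slaughter day. Below, parental pigs or parents are the castrated Large White and Creole pigs, not the sires and dams of the cross, which were not measured.

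The adrenal cortex makes glucocorticoids, mineralocorticoids and androgens from cholesterol under the control of pituitary and renal hormones, and the chromaffin cells of the medulla release catecholamines, so both parts take part in the response to heat. A first-generation cross carries 1 set of chromosomes from each parental breed. With purely additive gene action its expression lies midway between the parents on the linear scale, and on the log2 scale used here that point lies above the mid-parent value wherever the parents differ widely; dominance, imprinting and the single maternal X chromosome of males are textbook cases in which it may lie elsewhere. The swine leukocyte antigen (SLA) region on chromosome 7 holds the class I genes, whose proteins show peptides to T cells, together with class I-related genes such as MIC-2, and it is among the most polymorphic parts of the pig genome.

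The markers of the gland gave strong signals on every HS array, although levels of different probes cannot be compared as abundance. CYP11A1, the enzyme that cleaves the cholesterol side chain, and STAR, which brings cholesterol into mitochondria, had means of 18.33 and 17.65 on the log2 scale. The mean over the 11 cortex markers measured lay between 15.43 and 15.83 in the 18 HS pigs, and that over the 7 chromaffin markers between 13.61 and 14.45. Kidney and liver markers stayed between 7.06 and 8.31. Cross HS pig 3 stood apart in the 14 skeletal muscle markers, at a mean of 9.24 where the other 17 HS pigs lay between 8.07 and 8.38. Its MYH7, a slow myosin heavy chain, was at 12.59, and its MYLPF, a fast myosin light chain, at 11.42. Results in which this pig stood apart are given with and without it.

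Under HS, 20 of 45348 probes departed from the mid-parent value at an FDR adjusted p-value below 0.05 (limma), which is 0.0441% of the probes. Of these, 6 lay above the mid-parent value (0.0132%) and 14 below it (0.0309%). At an unadjusted p-value below 0.05 there were 3705 probes (8.17%). The 20 probes held 17 distinct sequences, and 14 of them named 9 genes. Below the mid-parent value were MTRF1, PDK3, KCNE1, AP1S2, SELENOF, SLA-6 and a probe annotated to HLA-E. Above it were TAC3 and MIC-2. Departures ranged in size from 0.34 to 3.12, with a median of 0.99. Without cross HS pig 3 the count was 24, and 19 of the 20 were among them; SELENOF was the exception, with −0.32 and an adjusted p of 0.135. Leaving out cross HS pig 1, 4, 5 or 6 gave 7, 9, 6 and 6 probes, and leaving out any other pig gave 15 to 28. The arrays lay on 5 slides. Without slide 3, 4 or 5 the count was 0, without slide 1 it was 5 and without slide 2 it was 21.

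Because several of the 20 probes overlap or repeat each other, 30-base windows of the 60-base probes are shown where this decides how many separate observations there are. They are the sequences listed in the scanner files, and capitals mark the longest run shared with another probe. Of the 3 called MTRF1 probes, A_72_P547886 and O7914 are identical over all 60 bases and the third shares 57 bases with them, so their values are nearly the same measurement.
MTRF1, probes A_72_P547886 and O7914: TTTCCTGTACAGGACTGTCCAGCTCTTCAA
MTRF1, probe A_72_P191081: tatTTTCCTGTACAGGACTGTCCAGCTCTT
The called PDK3 probes share 16 bases at their ends.
PDK3, probe A_72_P290514: GCATTGATTTTATTCTgaaattcagttgta
PDK3, probe A_72_P465465: tcttcctcttgagcGCATTGATTTTATTCT
A MIC-2 probe and an unnamed probe are identical over all 60 bases, and so are 2 further unnamed probes. The same window stands for both members of each pair.
MIC-2, probe A_72_P172941, and OTTSUST00000001125: GGTATCAGGATGAGAAAGCTGTGAGCCCAG
OTTSUST00000000780 and OTTSUST00000000781: CTTTGTATATCAATGTTGCTTCAATAAAGC
A further 4 called probes are shown because no long run ties them to another probe. Their longest shared run was between 13 and 18 bases.
SLA-6, probe A_72_P237292: aagatcgaacctgcgggTGATCATTGGCAA
HLA-E, probe O10747: gactttCCGAGTGAACCTGCGCACagctct
MIC-2, probe A_72_P555381: tctgaaatcCTGGACCAGCTTCacagagag
TAC3, probe A_72_P077796: tTGACTATAGGTTGCCctggagtttctgta

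MTRF1, a release factor of mitochondrial protein synthesis, had the lowest p-value. Its probe A_72_P547886 read 8.13, 8.30, 8.43, 8.37, 7.56 and 7.20 in the 6 cross HS pigs. The Large White HS pigs lay between 9.02 and 9.22 (median 9.10) and the Creole HS pigs between 8.87 and 9.22 (median 9.11). All 6 cross pigs were therefore below all 12 parental pigs, and the parental breeds overlapped. The departure was −1.11 ± 0.14 (SE), a factor of 2.16, with an adjusted p of 0.00747 (limma). The identical probe O7914 and the overlapping probe A_72_P191081 gave −1.05 and −1.01. The other 3 MTRF1 probes lay between −0.19 and 0.04 and did not pass, so the probes of the gene disagree. In TN the departure was −0.12 (unadjusted p = 0.463). There the cross pigs ranged from 8.33 to 9.18 and the parental pigs from 8.36 to 9.36. The difference between the HS and TN departures, −0.99, had an unadjusted p of 6.47e-05 and an adjusted p of 0.555 (limma). Within 1 Mb in the RefSeq Sscrofa11.1 annotation lay 12 probes of 7 other genes. Of these, 0 passed and 2 had an unadjusted p below 0.05, beside 0.0441% and 8.17% of all probes.

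PDK3 on the X chromosome encodes a kinase that switches off the pyruvate dehydrogenase complex. Probe A_72_P290514 ranged from 9.99 to 10.32 in the cross HS pigs (median 10.12), from 10.41 to 10.58 in Large White (10.44) and from 10.52 to 10.74 in Creole (10.57). Again all 6 cross pigs were below every parental pig, although by a small distance. The departure was −0.38 ± 0.05 (adjusted p = 0.00873, limma), and −0.40 ± 0.06 for probe A_72_P465465 (adjusted p = 0.0125). The call of the latter was lost without cross HS pig 1, 4, 5 or 6. The third PDK3 probe was at 0.30 with an adjusted p of 0.713. Both called probes were at −0.14 in TN, where 2 of 6 cross pigs were below all parents on each. On A_72_P465465, 1 TN cross pig was above all TN parents. PDHA1, the pyruvate dehydrogenase subunit that PDK3 phosphorylates, was at −0.44 under HS, with an unadjusted p of 0.00757 and an adjusted p of 0.441.

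AP1S2, also on the X chromosome, codes for a small subunit of the clathrin adaptor that sorts proteins at the trans-Golgi network. Its probe A_72_P036951 read 11.46, 11.52, 13.06, 11.55, 12.09 and 12.13 in the cross HS pigs. Large White HS pigs lay between 12.77 and 13.15 (median 13.07) and Creole HS pigs between 12.75 and 13.23 (median 13.10). Thus 5 cross pigs were below all parental pigs, and cross HS pig 3 lay inside the parental range. The departure was −1.07 ± 0.17 (adjusted p = 0.0224, limma), and −1.29 without that pig (adjusted p = 4.33e-05). The second AP1S2 probe, A_72_P190756, gave −0.97 ± 0.16 (adjusted p = 0.0348), and −1.19 without cross HS pig 3. The calls were lost with slide as a fixed block and on leaving out any other cross pig. Among the parental pigs, Large White pig 2 or 4 or Creole pig 4 ended both calls, and 6 further pigs (Large White 1, 3 and 6, Creole 2, 3 and 6) ended the second. TN departures were −0.57 and −0.56, with unadjusted p-values of 0.0224 and 0.0306. MID1, another X-linked gene and one for a microtubule-bound ubiquitin ligase, was at −0.64 under HS without passing (adjusted p = 0.104), at −0.78 without cross HS pig 3 (adjusted p = 0.00159) and at −0.76 in TN (unadjusted p = 0.000461, adjusted p = 0.203).

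KCNE1, the regulatory subunit of a voltage-gated potassium channel, ranged from 7.34 to 8.06 in the cross HS pigs (median 7.46), from 7.95 to 8.58 in Large White (8.30) and from 8.02 to 8.31 in Creole (8.18). Cross HS pig 3, at 8.06, lay inside the parental range and the other 5 below it. The departure of −0.69 ± 0.11 (adjusted p = 0.0132, limma) became −0.79 without that pig (adjusted p = 0.0008), whereas leaving out any of the other 5 cross pigs, or fitting all 36 arrays, ended the call. A second KCNE1 probe, with a low mean of 5.56 under HS, was at −0.03 and did not pass. In TN the cross pigs spread from 7.33 to 8.96, with a departure of −0.31 (unadjusted p = 0.161). The unnamed probe A_72_P022911 showed the same arrangement of pigs: cross HS pig 3 was at 8.37, the other cross pigs were between 6.96 and 7.23, and all parental pigs were at or above 7.69. Its departure was −1.02 ± 0.18 (adjusted p = 0.0424), and −1.23 without cross HS pig 3 (adjusted p = 0.000238). The call was lost in 25 of 37 alternative settings, among them 16 that left out a single other pig and the one with slide as a fixed block.

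SELENOF, a selenoprotein of the endoplasmic reticulum, had the smallest departure, −0.34 ± 0.06 (adjusted p = 0.0418, limma). It ranged from 13.33 to 13.69 in the cross HS pigs (median 13.46), from 13.69 to 13.91 in Large White and from 13.66 to 13.95 in Creole (both medians 13.78). Of its 6 probes 1 passed, and 5 were below the mid-parent value. The probe A_72_P562884, which shares 30 bases with the called probe, was at −0.31 without passing. The SELENOF call was lost in 23 of 37 alternative settings, among them 14 that left out a single pig. It was also lost with slide as a fixed block, with 75th percentile scaling and with median centring.

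TAC3, the precursor of neurokinin B, was above the mid-parent value and was the called gene with the most similar values in both temperatures. The cross HS pigs read 8.98, 8.18, 9.07, 8.52, 8.42 and 8.34. Large White HS pigs ranged from 7.24 to 8.03 (median 7.45) and Creole HS pigs from 7.31 to 7.97 (median 7.81). All 6 cross pigs exceeded all 12 parental pigs, and the same held in TN, where the cross ranged from 8.14 to 9.71, Large White from 6.58 to 7.67 and Creole from 7.62 to 8.0. The HS departure was 0.95 ± 0.14 (adjusted p = 0.0125, limma), but the call was lost with slide as a fixed block and without cross HS pig 1, 4 or 5. That in TN was 1.02 ± 0.19, with an unadjusted p of 5.48e-05 and an adjusted p of 0.105. The difference between the departures was −0.07 (unadjusted p = 0.774). Of the 149 probes of 54 other genes within 1 Mb, 0 passed and 6 had an unadjusted p below 0.05. Over all probes the shares were 0.0441% and 8.17%.

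**Figure D1:**
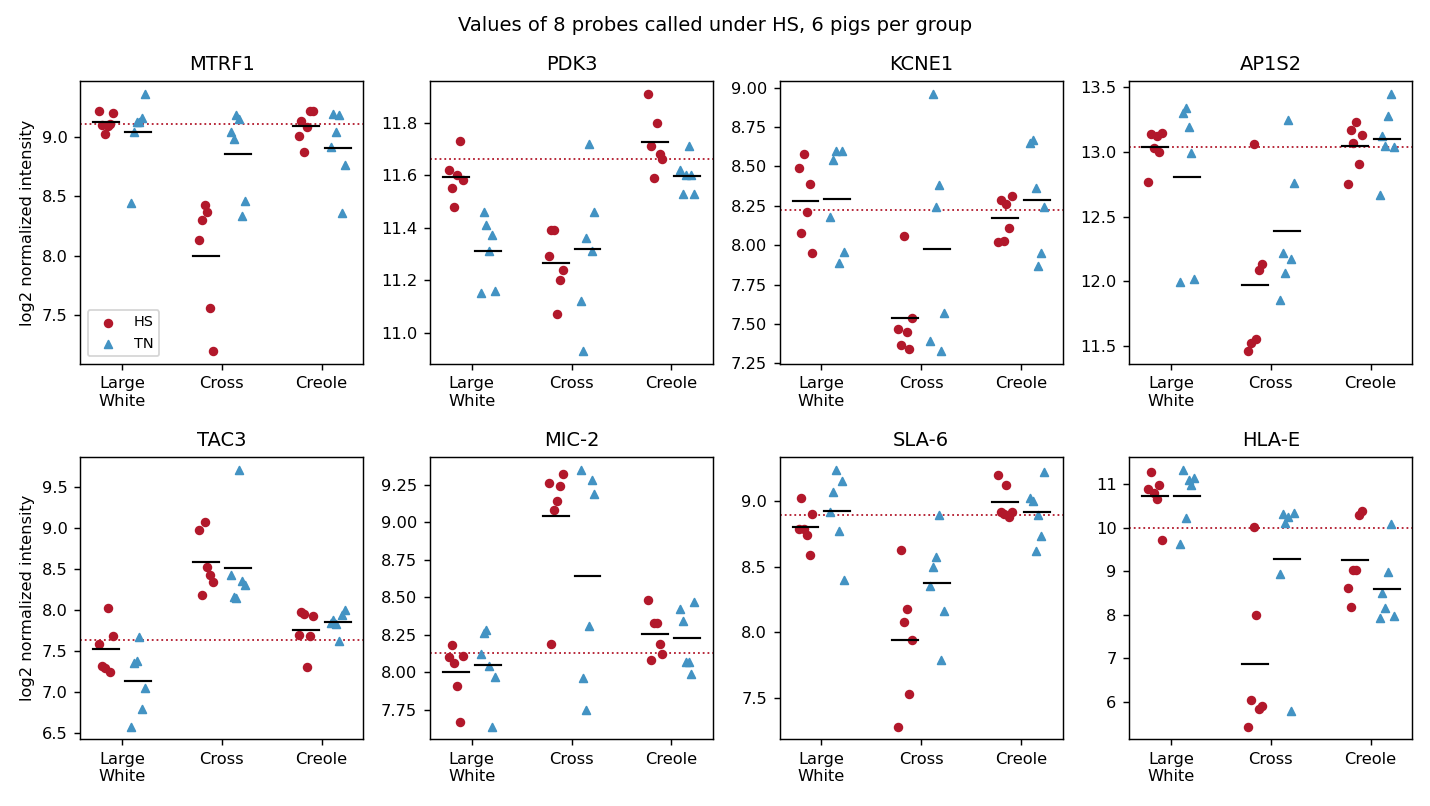
Log2 signal of each pig for 8 of the 20 called probes, by breed; circles are HS pigs, triangles TN pigs, bars group means of 6 pigs and the dotted line the HS mid-parent value. All 6 cross HS pigs lie outside the parental HS pigs for MTRF1, PDK3 and TAC3, whereas cross HS pig 3 (AP1S2, KCNE1) or cross HS pig 2 (MIC-2, SLA-6) lies with the parents elsewhere.

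Across all probes, 15 of 45348 (0.0331%) had every cross HS pig outside the range of all 12 parental HS pigs, and 6 of the 20 called probes were among them: 3 of MTRF1, 2 of PDK3 and TAC3. In TN the same count over all probes was also 15 (0.0331%). The probes on both lists numbered 2, TAC3 and FAM210B; the latter, encoding a mitochondrial protein, was not called and is named after its values were seen. Among the 20 called probes, cross HS pig 2 lay within the parental range for 9 and cross HS pig 3 for 6, while each of the other 4 cross pigs did so for 1, the probe A_72_P097651.

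Class I and class I-related genes gave called probes in both directions. MIC-2, a class I chain-related gene, read 9.26, 8.19, 9.08, 9.14, 9.24 and 9.32 in the cross HS pigs with probe A_72_P555381. Large White HS pigs were between 7.67 and 8.18 (median 8.08) and Creole HS pigs between 8.08 and 8.48 (median 8.26). Cross HS pig 2 lay among the parents and the other 5 above all of them. The departure was 0.91 ± 0.13, and 1.07 ± 0.16 with probe A_72_P172941 (both adjusted p = 0.0125, limma). The unnamed probe identical to the latter gave 1.12 ± 0.17. OTTSUST00000001126, a separate unnamed sequence, gave 1.05 ± 0.16, but it was well above background on the 6 cross HS arrays and on 3 arrays of each parental breed only. Its value depended most on the signal scaling, from 0.70 to 1.99 over the alternatives. TN departures of these 4 probes were between 0.50 and 0.70, and 3 of 6 TN cross pigs were above all TN parents on each. On A_72_P172941 and OTTSUST00000001125, 1 TN cross pig was below all TN parents.

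SLA-6, a class I gene outside the classical set, lay below the mid-parent value. Its cross HS values were 7.28, 8.63, 8.08, 8.18, 7.53 and 7.94, against 8.59 to 9.02 in Large White (median 8.79) and 8.88 to 9.20 in Creole (median 8.92). Cross HS pig 2 was again the pig inside the parental range. The departure was −0.96 ± 0.14 (adjusted p = 0.0125, limma), and −0.54 in TN (unadjusted p = 0.00136, adjusted p = 0.253). The identical unnamed probes OTTSUST00000000780 and OTTSUST00000000781 were at −0.90 and −0.88 (adjusted p = 0.00805 and 0.0125), and in both of them cross HS pig 2, at 11.79 and 11.92, lay with the parents while the other 5 cross pigs were at 11.10 or less. The same pig thus had parental values for MIC-2, SLA-6 and the 4 unnamed OTTSUST probes. Without it the departures were larger, for example 1.08 for MIC-2 probe A_72_P555381 and −1.10 for SLA-6. Leaving out other pigs ended calls: those of A_72_P555381 without cross HS pig 1, 5 or 6, of A_72_P172941, OTTSUST00000001125, OTTSUST00000001126 and OTTSUST00000000781 without cross HS pig 1, 4, 5 or 6, and of SLA-6 without cross HS pig 5 or 6.

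The largest departure was that of probe O10747, annotated to HLA-E, the human name of a non-classical class I gene. The cross HS pigs read 5.43, 6.03, 10.03, 8.0, 5.84 and 5.90, Large White HS pigs 9.71 to 11.29 (median 10.85) and Creole HS pigs 8.18 to 10.38 (median 9.03). The probe was well above background on 5 of the 6 cross HS arrays. Its departure was −3.12 ± 0.54, a factor of 8.68 (adjusted p = 0.0424, limma), and −3.75 without cross HS pig 3 (adjusted p = 0.000348). The call was lost on leaving out any of 14 other single pigs (any other cross pig, Large White pigs 1 to 5 and Creole pigs 3 to 6), with slide as a fixed block, with normexp, with 75th percentile scaling and with a robust prior. In TN the departure was −0.38 (unadjusted p = 0.495), with 1 low cross pig at 5.79 and the other 5 between 8.93 and 10.35. The HS minus TN difference of −2.74 had an unadjusted p of 0.00185 and an adjusted p of 0.883.

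A group of probes was formed by name with the calls of MIC-2, SLA-6 and HLA-E known, so its passing probes are no separate support. Of the 68 probes whose name begins with SLA-, MIC- or HLA-, 4 passed and 11 had an unadjusted p below 0.05, beside 0.0441% and 8.17% of all probes. Their median departure was 0.05, against 0.00 over all probes. All 8 probes of SLA-3, a classical class I gene, had positive departures, from 0.08 to 1.49, without passing; the largest (A_72_P515992) had an adjusted p of 0.168, was at 1.62 without cross HS pig 3 and at 0.02 in TN. A probe of SLA-5 was at 1.94 ± 0.55 (adjusted p = 0.337) and the other at 0.14. The 7 probes of SLA-1 ranged from −0.43 to 0.26. Probes of the class II genes did not pass: the 7 of SLA-DRA were all negative, between −0.22 and −0.04, and the 4 of SLA-DRB1 all positive, between 0.12 and 0.21. MIC-2 and HLA-E had no position in the annotation used and could not be counted among the neighbours of SLA-6. Among 207 probes of 81 other genes within 1 Mb of SLA-6, 0 passed and 35 had an unadjusted p below 0.05. Over all probes the shares were 0.0441% and 8.17%. A probe of VARS, a valyl-tRNA synthetase, had the lowest p-value of the 207, at 0.46 (limma adjusted p = 0.127). The other 3 VARS probes were between 0.04 and 0.06.

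**Figure D2:**
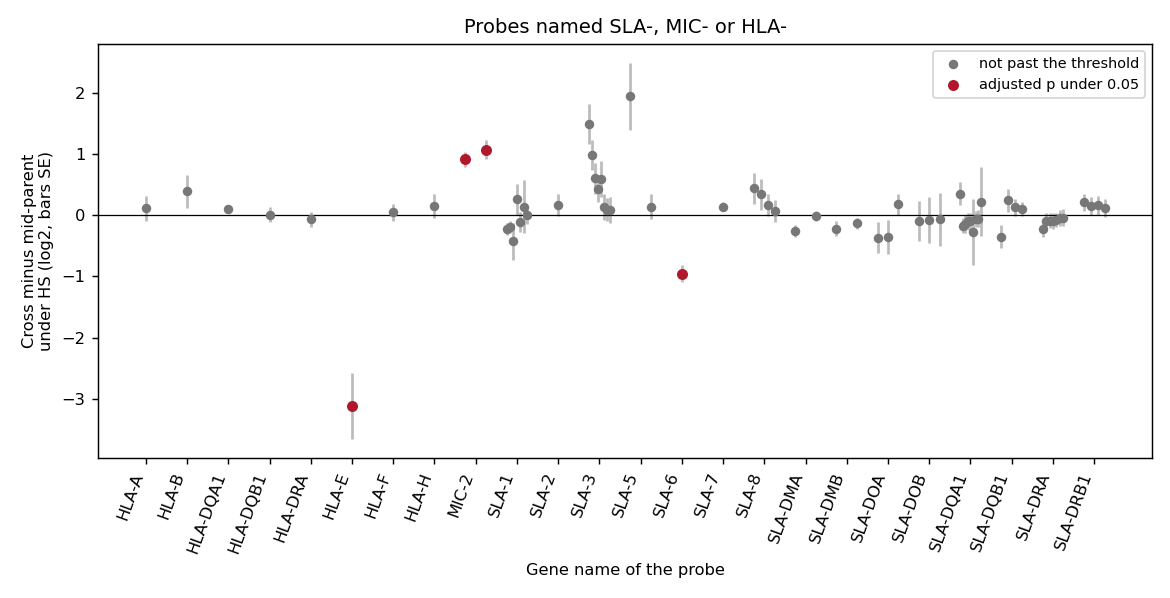
Departure of the cross from the mid-parent value under HS (log2) for each of the 68 probes named SLA-, MIC- or HLA-, by gene. Most lie near 0; MIC-2 lies above, SLA-6 and HLA-E below, and the SLA-3 probes are all on the positive side without passing.

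The only probe at which the cross departed from the mid-parent value and the parental breeds also differed was A_72_P097651, which is annotated by similarity to a coiled-coil domain protein and carries no gene symbol here. Large White HS pigs ranged from 8.90 to 9.75 (median 9.27), Creole HS pigs from 5.71 to 6.48 (5.94) and cross HS pigs from 8.03 to 9.74 (8.93). The cross thus overlapped Large White and was apart from Creole. Its departure was 1.34 ± 0.21 (adjusted p = 0.0132, limma) with a cross minus Large White difference of −0.30 (adjusted p = 0.779). It was also the only probe called in TN as well, at 0.89 (adjusted p = 0.0401). These values depend on the scale of the mid-parent value. Against the mean of the parental breeds on the linear scale, an alternative chosen after seeing the data and not tested, the departure was 0.56 under HS and 0.11 in TN, whereas the other 19 called probes shifted by 0.18 or less under HS. The HS call was also lost in 8 of 37 alternative settings, among them those without cross HS pig 1, 5 or 6.

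For 19 of the 20 called probes the cross mean lay beyond both parental means, and 14 passed the test against each parental breed taken alone. The comparisons with a single parent, which share the cross arrays, had 63 probes past the threshold against Large White (0.139%) and 87 against Creole (0.192%). Large White and Creole differed at 865 probes (1.91%). Of these 865, the cross mean lay between the parental means for 787, beyond Large White for 46 and beyond Creole for 32. On a scale from 0 at the Creole mean to 1 at the Large White mean, the cross had a median position of 0.56 with quartiles of 0.35 and 0.74; 485 probes were nearer to Large White and 380 nearer to Creole (497 and 368 on the linear scale). The departure passed the threshold at 1 of the 865, and 178 (20.6%) had an unadjusted p below 0.05, against 8.17% of all probes. Both tests use the same variance estimate for a probe, so probes with small estimates are favoured in each.

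**Figure D3:**
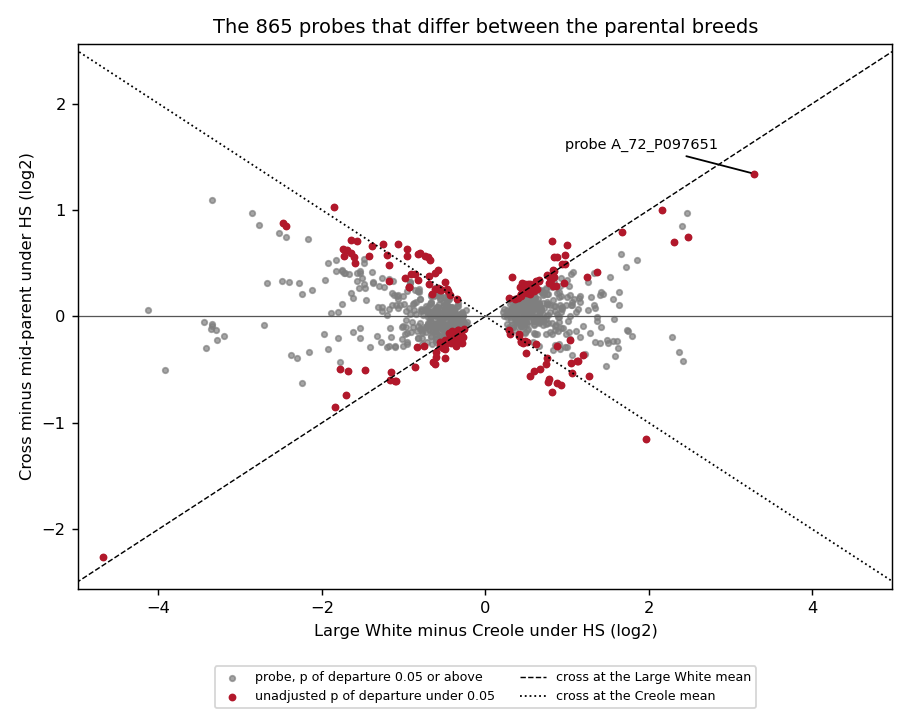
Large White minus Creole (x axis) against cross minus mid-parent (y axis), both log2 under HS, for the 865 probes that differed between the parental breeds. A point at 0 on the y axis lies at the mid-parent value, and 787 of the points lie between the parental means; the single called departure is A_72_P097651.

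In the TN pigs, whose arrays the HS comparison did not use but which came from the same litters, all 20 called probes departed in the same direction as under HS. The TN departure was smaller for 19 of them, TAC3 being the exception, with a median of 0.52 in the HS direction against 0.99 under HS. Of the 20, 12 had an unadjusted p below 0.05 in TN, as 8.3% of all probes did, and 1 passed the adjusted threshold. The 20 probes hold 17 distinct sequences and several probes of the same gene, so these are not separate observations. The 20 were chosen by their HS p-values, which favours large HS values over TN ones. The direct test of HS against TN departures gave 0 probes past the threshold (limma), with 2546 at an unadjusted p below 0.05 (5.61%) and a lowest adjusted p of 0.0875; 7 of the 20 were among the 2546. Over all 45348 probes, 54.1% had the same sign in both temperatures, and the correlation across probes, which are not independent, was 0.30. TN itself had 10 called probes (0.0221%), all of the same sign under HS, where 4 had an unadjusted p below 0.05. Among them were MLKL, the effector of necroptosis, at −1.59 in TN (limma adjusted p = 0.0115) and −0.31 under HS. PNPLA3, a lipid droplet hydrolase, was at −0.81 in TN (limma adjusted p = 0.0373) and −0.69 under HS.

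**Figure D4:**
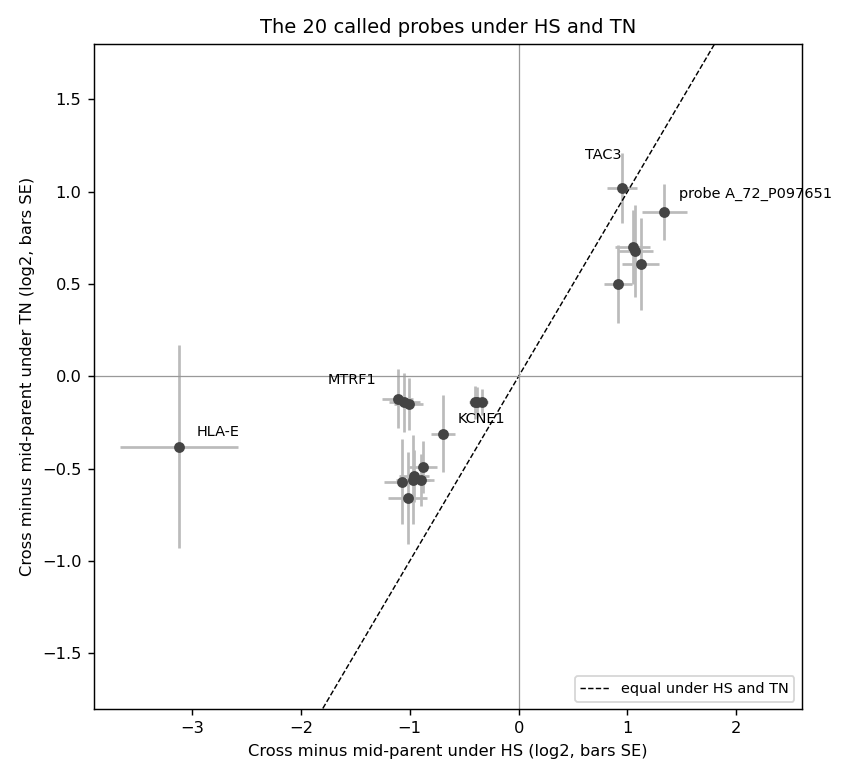
Departure of the cross from the mid-parent value (log2) under HS (x axis) and in TN (y axis) for the 20 probes called under HS, with the line of equal departure. All points share their sign and 19 of the 20 have the smaller size in TN.

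The genes with the lowest p-values for a difference between the HS and TN departures did not pass (adjusted p from 0.555 to 0.827, limma). NTRK2, the receptor of brain-derived neurotrophic factor, was at 0.56 under HS and −0.35 in TN. Its other 2 probes were at −0.20 and −0.90 (A_72_P299379) and at −0.06 and −0.02 (A_72_P357443). The synaptic membrane protein gene CLSTN3 was at 0.67 and −0.12, and NOL11, needed for ribosomal RNA synthesis, at −0.43 and 0.04. The imprinted RNA H19 was at −0.20 under HS and 0.45 in TN, and the cargo transport gene TMED9 at −0.30 and 0.53. For TMED9, cross TN pigs 2 and 4 read 7.62 and 7.66, and the other cross TN pigs lay between 6.30 and 6.42. Another probe of CLSTN3 was at 0.05 under HS and −0.08 in TN, of NOL11 at 0.08 and −0.04, of EMX2 at −0.09 and −0.09, and of TMED9 at −0.15 and 0.00. EMX2, TCHP and FGL2 had positive differences of 0.42, 0.67 and 0.41, and NDFIP2 a negative one of −0.50. The EMX2 probe A_72_P490462 was dim, well above background on 6 cross, 3 Large White and 3 Creole HS arrays. In TN the numbers were 2, 4 and 4.

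Just inside the threshold were SELENOF, A_72_P022911 and HLA-E, with adjusted p-values from 0.0418 to 0.0424, and just outside it A_72_P279574 (0.66, adjusted p = 0.0601), A_72_P229917 (−0.60, 0.0673) and LYZ (−1.06 ± 0.19, 0.0673). LYZ, the lysozyme of macrophages and granulocytes, had 5 probes, all between −1.06 and −0.97, with adjusted p-values from 0.0673 to 0.141 and TN departures from −0.75 to −0.70. All 6 cross HS pigs were below the parental HS pigs with probe A_72_P721793, but not in TN. Other genes of low p above the mid-parent value that did not pass were CACNA1D, a calcium channel subunit of aldosterone-producing cells (0.45, adjusted p = 0.0977), the endocytic adaptor EPN3 (0.67), the kinase NEK1 (0.31), the ethanolamine kinase ETNK2 (0.54) and the sodium-potassium-chloride cotransporter SLC12A2 (0.58). Below it were the replication factor partner MCMBP (−0.29) and the proton pump subunit ATP6V1H (−0.28).

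LYZ belongs to the leukocyte markers. Of the 25 marker genes measured, 22 were below the mid-parent value, 10 of them with an unadjusted p below 0.05, and 0 passed. Over all probes 8.17% had such a p and 0.0441% passed, in either direction. The median departure was −0.21 under HS and −0.15 in TN. The mean over the list was 8.88 to 9.20 in the cross HS pigs, 9.01 to 9.50 in Large White and 9.13 to 9.33 in Creole, so the groups overlapped. Among the members were CD163, the haemoglobin scavenger receptor of macrophages, at −0.51, and C1QA and C1QB, complement subunits made by macrophages, at −0.51 and −0.47. CD68 and PTPRC were nearer the mid-parent value, at −0.10 and −0.11. The 3 members above it were CD14 (0.02), S100A8 (0.03) and S100A12 (0.07). Of 41 genes of chemokines, cytokines and their receptors, 28 were negative, with a median of −0.09. The chemokine receptor CCR1 had the lowest p-value, at −0.53 (unadjusted p = 0.000215, adjusted p = 0.166), whereas the neutrophil attractant CXCL2 was at 0.60. How far the number of leukocytes in the gland entered these values was not tested.

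None of the listed genes of adrenal function and heat defence passed the adjusted threshold, but only 0.0441% of all probes did. At that share a short list would seldom hold a passing member. Over all 22 lists, which also hold immune, ribosomal, metabolic and cell cycle genes, SLA-6 was the single member past the threshold, with 1 probe per gene. Of 17 genes of steroid synthesis, 0 passed, with a median of 0.03; SULT2A1, which sulphates DHEA, was at 1.38 ± 0.55 (unadjusted p = 0.0226, adjusted p = 0.532) and STAR at −0.22 (unadjusted p = 0.03, adjusted p = 0.551). Of 26 genes of cholesterol synthesis, uptake and storage, 19 were negative with a median of −0.10. SOAT1, which esterifies cholesterol for storage, was at −0.45 and IDI1, of the isoprenoid pathway, at −0.42 (adjusted p = 0.33 and 0.455). The 25 genes of chromaffin cells had a median of 0.08, with ADCYAP1, the neuropeptide PACAP, at −0.98 (unadjusted p = 0.00386, adjusted p = 0.373). The 13 genes of HSP70 and HSP110 had a median of −0.05 and the 29 of HSP90, chaperonins and small heat shock proteins 0.00. Of 36 interferon-stimulated genes 27 were positive, with a median of 0.09 (0.15 in TN). The medians of the remaining lists lay between −0.05 and 0.03, beside 0.00 over all probes.

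**Figure D5:**
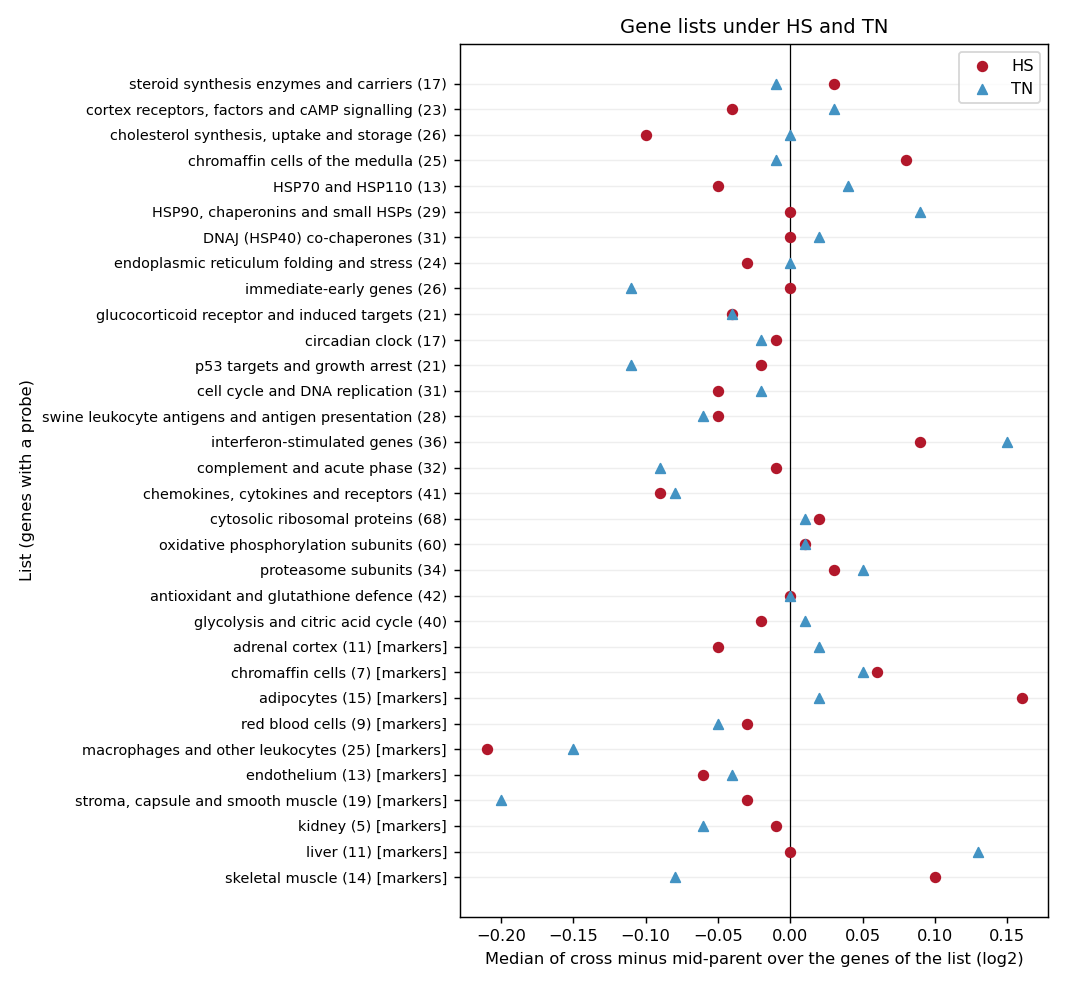
Median departure of the cross from the mid-parent value (log2) over the members of each gene list, under HS and in TN; the line at 0 is the mid-parent value. Leukocyte markers have the lowest HS median (−0.21) and adipocyte markers the highest (0.16).

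Adipocyte markers had a median departure of 0.16, with a list mean of 10.12 to 10.89 in the cross HS pigs, 9.96 to 10.36 in Large White and 10.34 to 10.78 in Creole, so the groups overlapped. Of the 15 adipocyte genes, 0 passed and 2 had an unadjusted p below 0.05, beside 0.0441% and 8.17% of all probes. Their TN median was 0.02. The arrays lay on 5 slides scanned on the same day, and 4 slides held HS pigs of all 3 breeds. Within each of these 4 slides all 20 called probes kept the sign of their departure, which is no separate support since the probes were chosen on the same arrays. For example, MTRF1 probe A_72_P547886 ranged from −2.01 to −0.60, TAC3 from 0.59 to 0.95 and SLA-6 from −1.37 to −0.50 over the slides. With slide as a fixed block 21 probes passed, of which 11 were higher and 10 lower in the cross, and 13 of the 20 were among them. TAC3, both AP1S2 probes, SELENOF, HLA-E, OTTSUST00000000781 and A_72_P022911 did not pass with that block. Over 36 to 38 alternative settings, the call was lost in 3 for each MTRF1 probe, in 4 and 9 for the PDK3 probes, in 7 for SLA-6, in 8 and 9 for the MIC-2 probes, in 8 for A_72_P097651, in 10 for TAC3, in 11 for KCNE1, in 14 and 21 for the AP1S2 probes, in 25 for A_72_P022911 and in 23 for both SELENOF and HLA-E.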

How the data were processed

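Adrenal RNA of 36 pigs was hybridised to Agilent 1-colour porcine arrays (1 per pig, 6 per breed and temperature). The authors read median spot intensity from scanner files made with Agilent Feature Extraction 10.10.1.1, quantile normalized it and deposited log2 values for 45348 probes (93 values missing). The study's methods name Sscrofa11.1 for its probe annotation. Those log2 values were tested with limma 3.58.1 in R 4.3.3, 1 mean per breed over the 18 HS arrays, two-sided, with Benjamini-Hochberg adjustment over all probes and a threshold of 0.05. TN pigs were fitted alike, and the HS and TN departures were compared over all 36 arrays. The study's random terms (pen, slaughter day, parents) are not in the labels used here and were left out, so p-values measure the spread between pigs, although each breed rests on 3 litters. The number of arrays limits the precision. Data were simulated with independent normal noise and 100 probes changed at each size. In them 69% of changes of 0.5 and 89% of changes of 1 were recovered for the HS departure. The simulation held no littermates or correlated probes. Fewer changed probes would make the adjusted threshold stricter, so these shares are no measure of the power of this comparison.

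Probes were named by gene name, gene ID, accession or description in the scanner files through RefSeq tables (Sscrofa11.1, for names, chromosomes and neighbours); 23479 probes named 11166 genes. MIC-2 and HLA-E are names of the files only. The genes named are all genes past the threshold, filled to 12 in each direction with those of lowest p, the 5 in each direction of lowest p for the HS minus TN difference, and up to 3 per list, some of which are not reported here; for lists, the brightest probe stood for a gene. The members, lists and rules were chosen with earlier results of these data known. Alternatives were slide as a block or left out, other normalizations of the deposited scanner intensity (quantile, normexp with offset 50, 75th percentile, median centring), filters on dim probes, array weights, other variance priors and thresholds, and leaving out each pig.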

Additional observations from a re-analysis of the deposited data

Results flagged for a closer look

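Of 153 groups of 6 pigs examined, 17 (11.1%) had a pig whose gap to the nearest other pig, divided by the range of the group, exceeded Dixon's critical value, which chance gives in about 1 of 20 groups; probes of overlapping sequence are not independent here. Cross HS pig 2 stood apart in 6 of them, all at called probes, of MIC-2 or without a gene name. It was the highest cross pig for OTTSUST00000000780 (11.79, ratio 0.768) and OTTSUST00000000781 (11.92, ratio 0.665). It was the lowest for MIC-2 probe A_72_P555381 (8.19, ratio 0.787), MIC-2 probe A_72_P172941 (7.67, ratio 0.835), OTTSUST00000001125 (7.74, ratio 0.719) and OTTSUST00000001126 (5.55, ratio 0.823).

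Cross HS pig 3 stood apart as the highest cross pig for KCNE1 (8.06, ratio 0.726), AP1S2 probe A_72_P190756 (11.33, ratio 0.705), A_72_P022911 (8.37, ratio 0.807) and MID1 (7.22, ratio 0.724), and as the lowest for SLA-3 probe A_72_P515992 (16.07, ratio 0.684). The same pig had the high mean of the skeletal muscle markers (9.24, ratio 0.770), whose part in the other values was not tested. Cross HS pig 4 was high for SLC12A2 (13.94, ratio 0.704).

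Among the parental HS pigs, Creole pig 3 was high for A_72_P097651 (6.48, ratio 0.635), Creole pig 6 for NTRK2 (10.46, ratio 0.638) and Creole pig 1 for SLA-3 probe A_72_P515992 (16.78, ratio 0.666). Large White pig 5 had the low mean of the chromaffin markers (13.61, ratio 0.696).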

How the results depend on the processing

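No departure of a called probe changed sign under any alternative, including a mid-parent value on the linear scale, added after seeing the data, which moved A_72_P097651 from 1.34 to 0.56. The 20 probes called for the HS departure were between 16 and 24 under the other normalizations, filters, priors, array weights and slide terms. Leaving out a pig gave 6 to 28 probes for the HS departure, 13 to 92 for cross minus Large White, 37 to 127 for cross minus Creole, 481 to 953 for Large White minus Creole, 0 to 1 for the HS minus TN difference and 0 to 1 for members of the lists, where SLA-6 was lost without cross HS pig 5 or 6. Without slide 1 (fewer arrays) there were 5 probes for the HS departure, 39 against Large White, 0 in TN and 0 in the lists. Without slide 2 there were 25 against Large White, 44 against Creole and 383 between the parents. Without slide 3 there were 0 for the HS departure, 18 against Large White, 5 against Creole, 145 between the parents, 2 in TN and 0 in the lists. Without slide 4 the counts were 0, 7, 5 and 277 in the same order for HS, 1 for the HS minus TN difference and 0 in the lists. Without slide 5 they were 0 for the HS departure, 24 against Large White, 214 against Creole, 27 in TN and 0 in the lists. A fixed slide block gave 26 against Large White, 131 against Creole and 2 in TN, and a random one 166 against Creole. All 36 arrays in the fit gave 256 against Creole, 75th percentile scaling 53 against Creole, median centring 1 for the HS minus TN difference and array weights 119 against Large White. At an adjusted threshold of 0.1 the counts were 31, 140, 271 and 1789 for the HS comparisons in the same order, 21 in TN, 1 for the difference and 2 in the lists; at 0.01 they were 5, 1, 6, 149, 0 in TN and 0 in the lists. With 1 probe per named gene they were 7, 16, 30 and 240, and 2 in TN. The causes of these shifts were not tested. The 3 called MTRF1 probes passed in every alternative that tested them, except without slide 3, 4 or 5. With 1 probe per named gene they were not tested. There the brighter MTRF1 probe A_72_P190681, at a departure of 0.04, stood for the gene and did not pass. Each array was a different pig, and no pairing by litter was possible because the labels do not give litter. Pig numbers follow the order of the samples within each group.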

Other observations

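Probes grouped by chromosome in the RefSeq annotation, chosen after their values were seen and described without a test, differed in how many had low p-values. The mitochondrial genome, which pigs inherit from the dam, had 128 probes of 13 protein genes. None passed the adjusted threshold (limma, lowest adjusted p = 0.286), and 53 (41.4%) had an unadjusted p below 0.05 for the HS departure, 49 higher and 4 lower in the cross, against 8.1% of autosomal probes. The median departure was 0.12 under HS and 0.01 in TN, where 43 (33.6%) had an unadjusted p below 0.05, 25 of them higher in the cross. All 13 probes of ND2, a subunit of respiratory complex I, were positive, with a median of 0.50 under HS and 0.38 in TN, the highest median of the 13 genes. The medians under HS were near 0 for COX1 (0.03, 25 probes), CYTB (0.02, 21 probes) and ND4 (−0.04, 11 probes). Probes of 1 gene measure the same RNA and are not separate observations.

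Of 790 X-linked probes, 4 passed (the PDK3 and AP1S2 probes described above) and 107 (13.5%) had an unadjusted p below 0.05, 29 higher and 78 lower in the cross, beside 0.0441% and 8.17% of all probes. Autosomal probes also leaned lower, with 681 higher and 1052 lower. In TN the count was 86 (10.9%), 38 of them higher in the cross.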
